A study of Mus musculus with 15 samples.

Results

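The Dectin-2 cluster C-type lectins described here are 7 genes, Clec4e, Clec4d, Clec4n, Clec4a1, Clec4a2, Clec4a3 and Clec7a, of the 17712 genes with deposited levels. They were taken as the rows of the deposited log2 CPM table (CPM, reads relative to the scaled library size, on the log2 scale) whose Ensembl identifier carries one of these symbols, and all 7 were found. The list was proposed with the levels of all 4 groups in view, so the members' own levels and changes are given as a description, and no test of them is offered as support. MC38 is a colon carcinoma line of the mouse, and its tumours were raised subcutaneously in C57BL/6 mice to about 5 mm before the agents were injected into them. The groups were BO-112 (50 µg, n = 4), DMXAA (100 µg, n = 4), BO-112+DMXAA (50 µg with 100 µg, n = 4) and vehicle (PBS with 5% DMSO and 5% glucose, n = 3). Each tumour received 100 µL, the labels name no gene deletion or transgene in any group, and the tumours were taken 24 h later. The labels call the samples biological replicates, and errors measure the spread between them. BO-112 is poly I:C, which mimics viral double-stranded RNA, held in a nanoparticle carrier. DMXAA activates mouse STING, the adaptor of cytosolic DNA sensing.

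C-type lectin receptors of this family sit on myeloid cells and bind sugars and glycolipids of microbes and of damaged cells. Clec4e (Mincle), Clec4d (MCL) and Clec4n (Dectin-2) signal through the adaptor Fcer1g, the Fc receptor gamma chain, to the kinase Syk and the scaffold Card9, which lead to NF-κB and to inflammatory cytokines. Clec7a (Dectin-1), the receptor of fungal beta-glucans, reaches Syk through a motif in its own tail. Clec4a2 (DCIR) instead carries an inhibitory tail that recruits phosphatases, and Clec4a1 and Clec4a3 are its mouse paralogues. In the RefSeq order of mouse chromosome 6 the genes of the cluster run Clec4a1, Clec4a3, Clec4a4, Clec4b1, Clec4a2, Clec4b2, Clec4n, Clec4d and Clec4e. Clec7a lies in the neighbouring Dectin-1 cluster, with 106 protein-coding genes between it and Clec4e.

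Several libraries stood apart from their groups. BO-112 1, DMXAA 1, DMXAA 3 and vehicle 2 held skeletal muscle transcripts, with Acta1, the muscle actin, at 58.0 to 291 CPM, against 0.113 to 5.60 CPM in the other libraries. In DMXAA 2 the fifth of genes with the shortest transcripts lay at a median of 1.05 above the mean of the other libraries on the log2 scale, and in DMXAA 3 at 0.47, while the other libraries lay between -0.24 and 0.05. The median correlation of log2 CPM with the libraries of the same group was 0.933 for DMXAA 2 and 0.966 to 0.982 elsewhere. Colon epithelial markers were scarce, with 5 of 9 measured and a summed level of 8.77 to 87.3 CPM, the others being not analysed here. The libraries held 12725316 to 19660511 reads, and every member lay above 1 CPM in every library.

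Clec4e was the member that differed most between groups. Its level was 275, 329, 323 and 299 CPM in the BO-112 tumours, 27.1, 5.09, 10.6 and 31.4 CPM in the DMXAA tumours, and 123, 135, 54.5 and 107 CPM in the BO-112+DMXAA tumours, against 4.73, 6.81 and 1.57 CPM in the vehicle tumours. The BO-112 and the BO-112+DMXAA tumours all lay above every vehicle tumour and above every DMXAA tumour, while DMXAA 2 lay within the vehicle range. Group means ran from BO-112 (307 ± 24.6 CPM, SD, n = 4) through BO-112+DMXAA (105 ± 35.6) and DMXAA (18.5 ± 12.7) to vehicle (4.37 ± 2.64, n = 3), and neighbours in that order overlapped only for DMXAA and vehicle. The log2 fold change against vehicle was 6.37 ± 0.57 with BO-112 (SE, limma, 95% interval 5.16 to 7.58), 1.99 ± 0.57 with DMXAA (0.78 to 3.19) and 4.74 ± 0.57 with both agents (3.54 to 5.95). The BO-112 and BO-112+DMXAA changes were past the threshold, an adjusted p of 0.05 over all genes, also in each fit that left out a library. The DMXAA change was not past it with all libraries, but was without DMXAA 2, at 2.49 ± 0.51.

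Clec4d, whose product pairs with that of Clec4e at the cell surface, was higher in every treated tumour than in any vehicle tumour. It stood at 120.3, 70.8, 113 and 115 CPM with BO-112, at 49.8, 18.8, 30.1 and 70.1 CPM with DMXAA, and at 115, 58.7, 38.1 and 101 CPM with both agents, against 7.37, 9.78 and 2.05 CPM with vehicle. The 3 treated groups were less far apart than for Clec4e, and the BO-112+DMXAA range overlapped those of both single agents. The log2 fold change against vehicle was 4.28 ± 0.53 with BO-112 (95% interval 3.15 to 5.41), 2.83 ± 0.53 with DMXAA (1.70 to 3.95) and 3.76 ± 0.53 with both (2.63 to 4.88), all past the threshold. The DMXAA call was lost without vehicle 1 (3.07 ± 0.61), without vehicle 3 (2.14 ± 0.48) and without the 4 muscle-rich libraries (3.22 ± 0.72). It was also lost by limma-voom and in a fit to these 2 groups alone. BO-112 2 was low among its group for Clec4d, yet lay above all vehicle tumours.

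**Figure D1:**
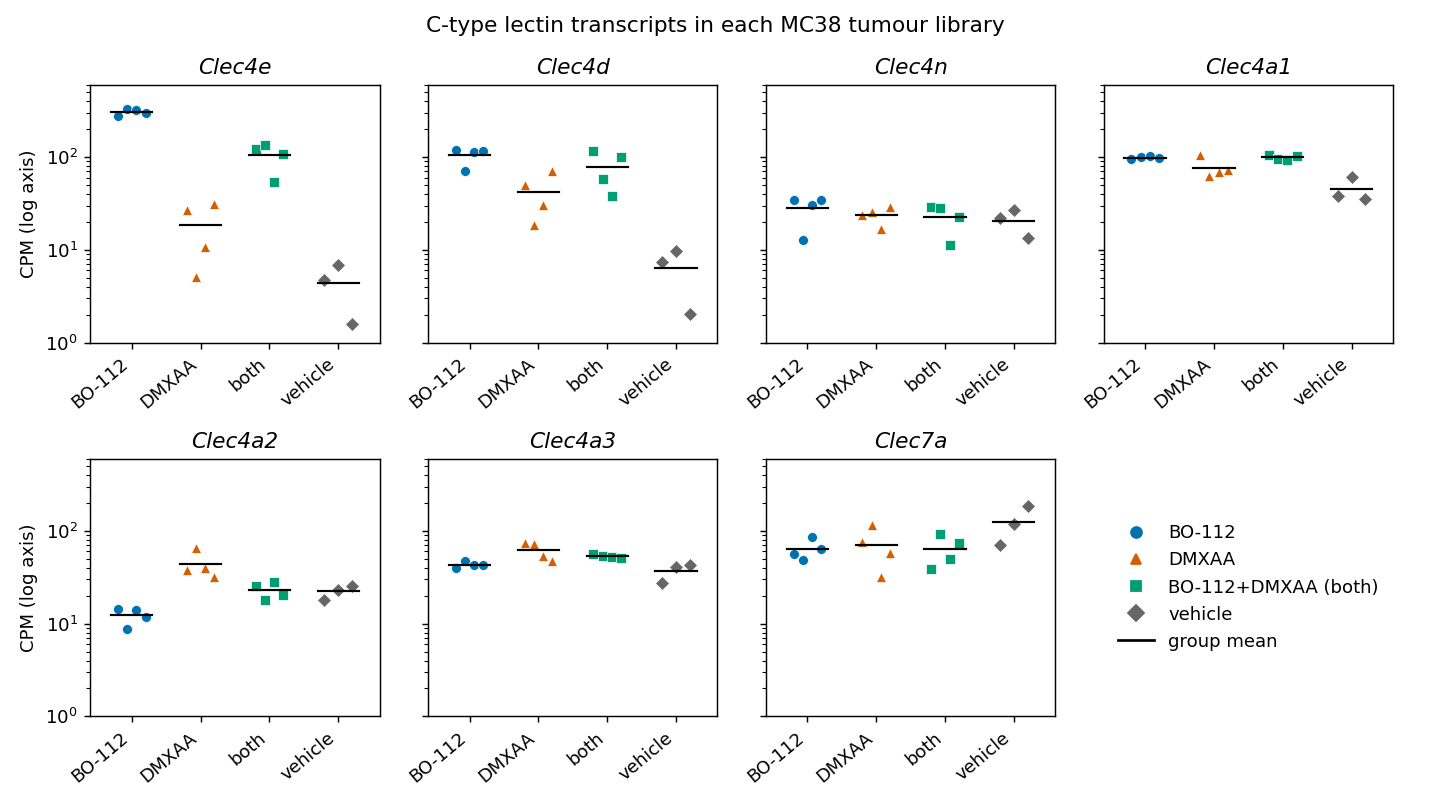
Level of each lectin in every library, in CPM on a log axis, with 4 BO-112, 4 DMXAA, 4 BO-112+DMXAA and 3 vehicle tumours, and bars at the group means. Clec4e spans 1.57 to 329 CPM and Clec4d 2.05 to 120.3 CPM, while Clec4n stays between 11.2 and 34.7 CPM.

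The promoters of Clec4e and Clec4d are shown because these neighbouring genes moved together, beside that of Clec4a2, which was lowest with BO-112. Each is the RefSeq window from 250 bases before to 50 bases after the gene's start, on GRCm38.p6, read 5′ to 3′ on the gene's strand. Clec4e lies at chr6:123289822-123290121 on the minus strand, Clec4d at chr6:123261857-123262156 and Clec4a2 at chr6:123122440-123122739, both on the plus strand. Capitals mark matches, on either strand, to the 6 motifs searched.
Clec4e: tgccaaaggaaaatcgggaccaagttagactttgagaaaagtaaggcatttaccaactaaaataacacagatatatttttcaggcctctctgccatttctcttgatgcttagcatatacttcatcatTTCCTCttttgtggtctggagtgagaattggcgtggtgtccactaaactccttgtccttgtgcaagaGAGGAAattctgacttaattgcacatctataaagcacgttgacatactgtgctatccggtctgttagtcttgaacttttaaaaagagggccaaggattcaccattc
Clec4d: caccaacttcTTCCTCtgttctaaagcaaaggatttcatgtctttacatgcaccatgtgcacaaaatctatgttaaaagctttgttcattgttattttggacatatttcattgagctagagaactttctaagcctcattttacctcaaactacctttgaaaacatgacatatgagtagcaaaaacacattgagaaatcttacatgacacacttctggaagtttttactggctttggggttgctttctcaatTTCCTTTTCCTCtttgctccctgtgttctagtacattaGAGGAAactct
Clec4a2: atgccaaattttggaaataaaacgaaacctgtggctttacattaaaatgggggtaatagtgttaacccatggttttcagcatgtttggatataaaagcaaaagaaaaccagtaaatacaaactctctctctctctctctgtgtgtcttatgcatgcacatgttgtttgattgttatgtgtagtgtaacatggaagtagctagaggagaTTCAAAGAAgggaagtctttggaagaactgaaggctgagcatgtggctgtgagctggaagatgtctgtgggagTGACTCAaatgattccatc
The interferon response element core GAAANNGAA matched in 8.56% of the 32851 promoter windows of all genes, the C/EBP motif TTGCNNCAA in 2.08%, the AP-1 motif TGANTCA in 7.81%, the PU.1 core GAGGAA in 28.3%, the STAT motif TTCNNNGAA in 8.30% and the NF-κB consensus in 8.46%. The Clec4e window held the PU.1 core at -123 and -56, counted from the start site, and no match to the other motifs. The Clec4d window held the PU.1 core at -240, 8 and 40, and an interferon core at 2 on the minus strand that overlaps the PU.1 core at 8. The Clec4a2 window held an AP-1 match at 32 and a STAT match at -42. Of the 7 members, 6 had a RefSeq window, Clec4n being the exception. Among the others, Clec4a1 and Clec7a held the PU.1 core alone, and so did 1 of the 2 Clec4a3 windows. These matches describe letters in a short window and are not binding sites.

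Clec4n, which encodes Dectin-2 itself, the receptor of fungal alpha-mannans, did not follow Clec4e and Clec4d in its differences between groups. It was at 34.7, 12.8, 30.8 and 34.3 CPM with BO-112, 23.8, 25.6, 16.9 and 28.9 CPM with DMXAA, and 28.9, 28.2, 11.2 and 22.8 CPM with both agents, against 22.03, 26.7 and 13.4 CPM with vehicle. All 4 ranges overlapped. The log2 fold changes against vehicle were 0.40 (95% interval -0.42 to 1.21), 0.23 (-0.58 to 1.04) and 0.10 (-0.71 to 0.91) for BO-112, DMXAA and both agents, and none was past the threshold. The highest upper bound was 1.21, below the log2 fold changes of Clec4e and Clec4d in any treated group. The sign was not stable under the alternatives, which ran from -0.05 to 0.66 with DMXAA and from -0.19 to 0.41 with both agents.

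The members of the DCIR group differed among themselves. Clec4a2, the inhibitory receptor, was at 14.5, 8.74, 14.1 and 11.6 CPM in BO-112 tumours, 38.2, 66.1, 39.7 and 32.0 CPM in DMXAA tumours, and 25.5, 18.1, 28.0 and 20.4 CPM with both agents, against 18.0, 23.2 and 25.5 CPM with vehicle. Every BO-112 tumour lay below, and every DMXAA tumour above, the whole vehicle range, while the tumours given both agents overlapped it. The log2 fold change against vehicle was -0.87 ± 0.24 with BO-112 (past the threshold), 0.94 ± 0.24 with DMXAA and 0.04 ± 0.24 with both (neither past it). The BO-112 call was lost without vehicle 2 (-0.84 ± 0.29), vehicle 3 (-0.77 ± 0.28), BO-112 2 (-0.72 ± 0.24) or BO-112 4, and without the 4 muscle-rich libraries (-0.92 ± 0.33). The DMXAA change reached the threshold without DMXAA 4, and was 0.73 ± 0.20 without DMXAA 2, which had the highest Clec4a2 level of all libraries.

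Clec4a1 was higher in every treated tumour than in any vehicle tumour, at 94.6, 100.2, 103 and 97.6 CPM with BO-112, 105, 62.1, 68.8 and 72.1 CPM with DMXAA, and 106, 95.3, 93.0 and 102 CPM with both agents, against 38.2, 61.7 and 35.1 CPM with vehicle. DMXAA 2, the lowest of the treated tumours, lay only just above vehicle 2. Its log2 fold change against vehicle was 1.18 ± 0.19 with BO-112 and 1.18 ± 0.19 with both agents, past the threshold in every fit that left out a library, and 0.79 ± 0.19 with DMXAA, which was past it only without vehicle 2, without DMXAA 2 (0.88 ± 0.18) or without the muscle-rich libraries. Clec4a1 varied little among tumours given BO-112, with a coefficient of variation of 3.52% with BO-112 and 6.11% with both agents, against 32.3% with vehicle. Clec4a3 did so too, at 7.70% and 3.38% against 22.2%. For Clec4e it was 8.01% with BO-112 and 33.9% with both agents, against 60.3% with vehicle. The vehicle values rest on 3 tumours.

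Clec4a3 was at 39.4, 47.4, 42.4 and 42.5 CPM with BO-112, 73.5, 71.7, 54.2 and 47.2 CPM with DMXAA, and 55.7, 53.0, 52.5 and 51.5 CPM with both agents, against 27.5, 40.8 and 42.5 CPM with vehicle. The DMXAA tumours and those given both agents lay above the vehicle range, and the BO-112 tumours overlapped it. The log2 fold change against vehicle was 0.24 ± 0.17 with BO-112, 0.74 ± 0.17 with DMXAA (past the threshold) and 0.55 ± 0.17 with both agents. The DMXAA call held in only 2 of the 15 fits that left out a library, those without vehicle 2 and without DMXAA 4, and the change ran from 0.54 to 0.86 over all alternatives. Clec4a1, Clec4a2 and Clec4a3 are close paralogues, and how reads that fit more than 1 copy were counted is not given in the sources used here, so their levels are uncertain to that extent.

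Clec7a was at 56.3, 48.4, 86.7 and 64.1 CPM with BO-112, 75.0, 115, 31.5 and 57.5 CPM with DMXAA, and 38.9, 93.1, 49.2 and 73.9 CPM with both agents, against 69.7, 119.9 and 187 CPM with vehicle. All ranges overlapped, and the vehicle tumours spread over the widest range. The log2 fold change against vehicle was -0.90 ± 0.41 with BO-112, -0.88 ± 0.41 with DMXAA and -0.95 ± 0.41 with both agents, none past the threshold. The 95% intervals were -1.77 to -0.02, -1.76 to -0.01 and -1.82 to -0.07. Clec7a had its highest mean in the vehicle group, at 125 ± 58.7 CPM (SD, n = 3), and the 3 treated means lay between 63.8 and 69.8 CPM.

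**Figure D2:**
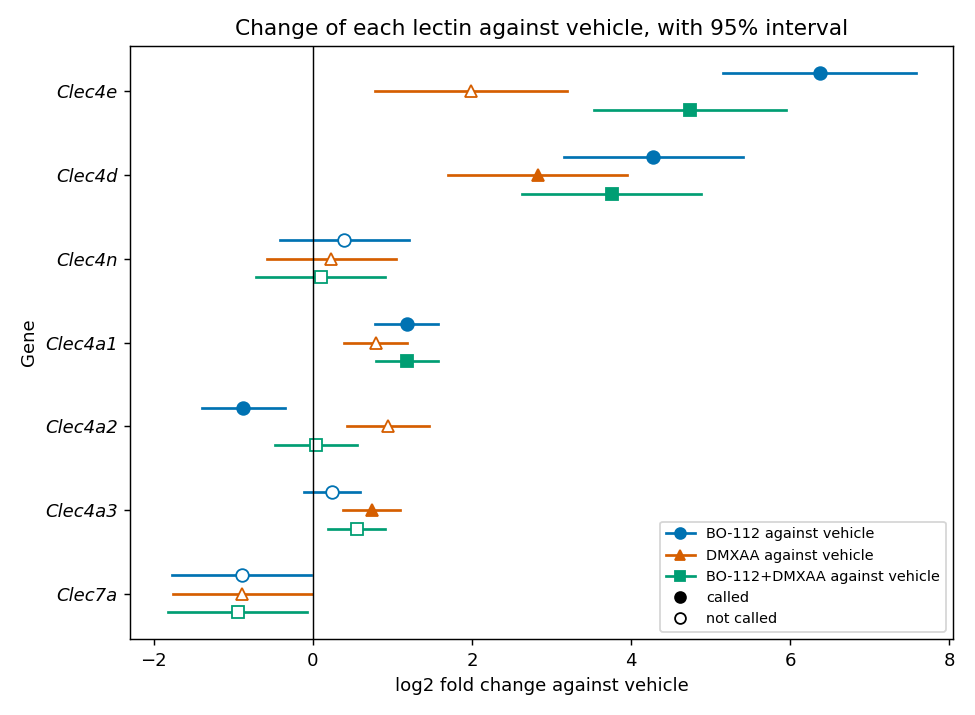
Log2 fold change of each lectin against vehicle (points) with its 95% interval from limma (lines), for BO-112, DMXAA and BO-112+DMXAA. Filled points are past an adjusted p of 0.05, and Clec4e ranges from 1.99 with DMXAA to 6.37 with BO-112 while the 3 Clec7a points lie near -0.9.

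The calls over all genes give the background of these counts and of the list counts further below. Since the members were chosen on the same comparisons, and the lists with earlier results known, nothing is read from the difference. With BO-112 against vehicle, 3 members were called higher (7.64% of all genes were) and 1 lower (4.31% were). With DMXAA against vehicle 2 members were called higher, against 1.08% of all genes, and none lower. With both agents against vehicle 3 were called higher, against 2.49% of all genes, and none lower. Members with a range wholly above that of vehicle numbered 3 with BO-112, 4 with DMXAA and 4 with both agents, and such ranges were found for 18.1%, 6.52% and 9.92% of all genes. Wholly below vehicle lay 1 member with BO-112, Clec4a2 (16.8% of all genes), and none with DMXAA (5.03%) or both agents (6.58%). The members' median log2 fold change was 0.40 with BO-112, 0.79 with DMXAA and 0.55 with both agents, where the medians of all genes were -0.04, 0.01 and -0.01. Scaling by total reads alone moved the median of all genes with BO-112 to -0.20, and called 932 genes higher and 1807 lower in place of 1353 and 763. It moved that median to -0.11 with DMXAA against vehicle and to 0.23 in the interaction, from 0.01 and 0.02. Under total reads alone the members called numbered 4 with BO-112 against vehicle, as before, 1 in place of 2 with DMXAA against vehicle, and 0 in place of 2 in the interaction.

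Adding DMXAA to BO-112 called no gene at all by limma (0%), although 1690 genes had an unadjusted p under 0.05, and limma-voom called 0 too. Clec4e was lower in each tumour given both agents than in any BO-112 tumour, with a log2 fold change of -1.62 ± 0.52 (95% interval -2.74 to -0.51). Clec4a2 was higher in each of them, at 0.92 ± 0.23 (0.44 to 1.40), and so was Clec4a3, at 0.31 ± 0.16 (-0.02 to 0.64). Of all genes, 6.11% had a range wholly below and 4.12% wholly above in this comparison, and nothing is read from these separations. A fit to these 2 groups alone called 362 genes, with 2 members among them, Clec4e and Clec4a2. Adding BO-112 to DMXAA gave a Clec4e change of 2.76 ± 0.52, which was called higher as were 0.717% of all genes. That call was lost in 5 of the 15 fits that left out a library, those without DMXAA 2 (2.25 ± 0.48), DMXAA 3, BO-112+DMXAA 1, BO-112+DMXAA 2 or BO-112+DMXAA 4, and without the muscle-rich libraries. It was also lost in a fit to the DMXAA and BO-112+DMXAA groups alone. Over all alternatives the change ran from 2.25 to 3.13.

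Between the single agents, BO-112 against DMXAA, 2 members were called higher (11.2% of all genes) and 2 lower (10.2%). Clec4e differed by 4.38 ± 0.52 on the log2 scale and Clec4a2 by -1.82 ± 0.23, with no overlap of their ranges, and both calls held in every alternative. Of all genes, 12.1% had a range wholly above and 10.5% wholly below here. Scaling by total reads alone gave 1407 genes higher and 2563 lower here, in place of 1976 and 1807. Clec4d (1.45 ± 0.49) and Clec4a3 (-0.50 ± 0.16) were near the threshold, and their calls held in 5 and 9 of the 15 fits that left out a library. Without DMXAA 2 they were 1.12 ± 0.51 and -0.42 ± 0.15 and not called.

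The interaction asks whether the change with both agents differs from the sum of the single changes on the log2 scale. Clec4e (-3.61 ± 0.77) and Clec4d (-3.35 ± 0.72) were called lower than that sum, as were 1.15% of all genes. Both values stayed negative in every alternative, from -4.12 to -2.99 for Clec4e and from -3.79 to -2.67 for Clec4d. The calls were held by 6 and 4 of the 15 fits that left out a library, and both were lost under scaling by total reads alone, where 44 genes were called higher and 70 lower in place of 35 and 204. Without vehicle 3, in which both genes were lowest, the values were -2.99 ± 0.73 and -2.67 ± 0.62 and not called, and without the muscle-rich libraries -3.89 ± 0.93 and -3.67 ± 0.91 and not called. Without DMXAA 2 they were -4.12 ± 0.68 and -3.68 ± 0.73 and called. The other members were not called with all libraries, with 0.83 ± 0.56 for Clec7a and -0.03 ± 0.33 for Clec4a2.

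Set per kb of each gene's merged exons, so that genes of unlike length can be compared, the make-up of the 7 transcripts turned over. The merged length depends on the annotated isoforms. In BO-112 tumours Clec4e was the highest of the members at a mean level of 122 CPM per kb, followed by Clec4d at 79.2, Clec4a1 at 63.4, Clec4a3 at 32.4, Clec7a at 27.9, Clec4n at 22.7 and Clec4a2 at 4.68. In vehicle tumours Clec7a was the highest at 54.9 CPM per kb, and Clec4d at 4.84 and Clec4e at 1.74 were the lowest. Clec4e and Clec4d made up 34.8% ± 4.25 and 22.4% ± 4.00 of the summed level per kb with BO-112 (SD, n = 4), against 1.27% ± 0.757 and 3.56% ± 2.26 with vehicle (n = 3). Clec7a made up 7.86% ± 1.49 with BO-112, 14.8% ± 6.72 with DMXAA and 10.9% ± 3.86 with both agents, against 37.3% ± 12.4 with vehicle, and its lowest vehicle share, 28.3%, was above its highest treated share, 24.4%. A share also moves when the other members move, as Clec4e did here. With DMXAA, Clec4a1 (24.6%) and Clec4a3 (23.3%) had the largest mean shares. Short genes lay high in DMXAA 2 and DMXAA 3, and the part of this in the shares was not tested.

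**Figure D3:**
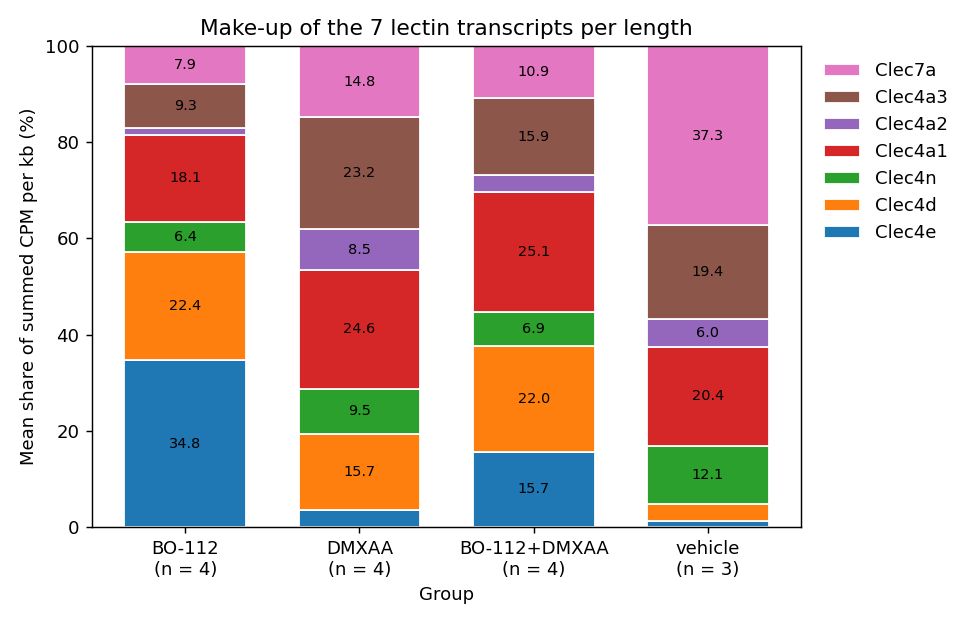
Mean share of each lectin in the summed level per kb of the 7 lectins, in percent, stacked for BO-112, DMXAA and BO-112+DMXAA (n = 4 each) and vehicle (n = 3). Clec4e holds 34.8% with BO-112 and 1.27% with vehicle, and Clec7a 7.86% and 37.3%.

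The genes whose log2 CPM was most like a member's over the 15 libraries were ranked by Pearson's r, as a description. Clec4e was most like Oasl1 (r = 0.995), Rsad2 (0.994) and Ifit3 (0.994), all interferon-stimulated genes. Oasl1 had ranges of 449 to 534 CPM in BO-112 tumours, 38.9 to 93.4 CPM in DMXAA tumours and 175 to 324 CPM in tumours given both, against 19.6 to 35.9 CPM in vehicle tumours, the same order of groups as Clec4e. Once the group means were taken off, Clec4e was most like Stat2 (r = 0.988), a transducer of interferon signals, and DMXAA 2 and vehicle 3 were the lowest of their groups in both genes. Without DMXAA 2 these values were 0.995 for Oasl1 and 0.981 for Stat2. Points of 1 group share their treatment, and each library shares its depth and make-up over all its genes.

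Clec4d was most like Rhov (r = 0.978), Ccl3 (0.966) and Pla2g7 (0.966). Taken about the group means, its r was 0.942 with Naip2. With S100a8, the gene of an abundant neutrophil protein, it was 0.93, and 0.92 without DMXAA 2. With other markers it was 0.67 for Ptprc (leukocytes), 0.66 for Csf3r (neutrophils) and 0.27 for Acta1 (muscle). For Ly6c2 (monocytes), Flt3 (dendritic cells) and Adgre1 (macrophages) it was 0.13, -0.33 and -0.41. Such values were not particular to Clec4d. For Clec4e they were 0.76 with S100a8, 0.78 with Csf3r, 0.68 with Ptprc and 0.26 with Acta1. With Ly6c2, Flt3 and Adgre1 they were 0.3, -0.19 and -0.12. For Clec4a1 they were 0.56 with S100a8, 0.73 with Csf3r, 0.75 with Ptprc and 0.46 with Acta1. With Ly6c2, Flt3 and Adgre1 they were 0.57, -0.27 and 0.18. In vehicle tumours S100a8 was near the floor, at 0.148 to 1.06 CPM. S100a8 was at 23.7, 5.56, 4.35 and 35.0 CPM in the BO-112+DMXAA tumours, and the 2 tumours with more of it were also those with more Clec4d. Clec4e and Clec4d were like each other, with r = 0.91 over levels and 0.87 about the group means. Clec4a2 was most like Alox5ap, the activating protein of leukotriene synthesis, by both measures (0.957 and 0.921), with 0.941 and 0.862 without DMXAA 2. Clec4a1 was most like Spic (0.962), a macrophage transcription factor, and about the group means most like Fcgr1 (0.902), a high-affinity Fc receptor. Clec7a was less closely matched, with Pdcd1lg2 at 0.86, and about the group means with Cd84 at 0.90 and Fcgr2b at 0.896. Clec4n had no r above 0.835, and its closest matches were Gzmd over levels (0.794) and Ctdp1 about the group means (0.835). About the group means its r was 0.67 with Clec4d and 0.46 with Clec4e, and 0.79 and 0.66 without DMXAA 2.

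**Figure D4:**
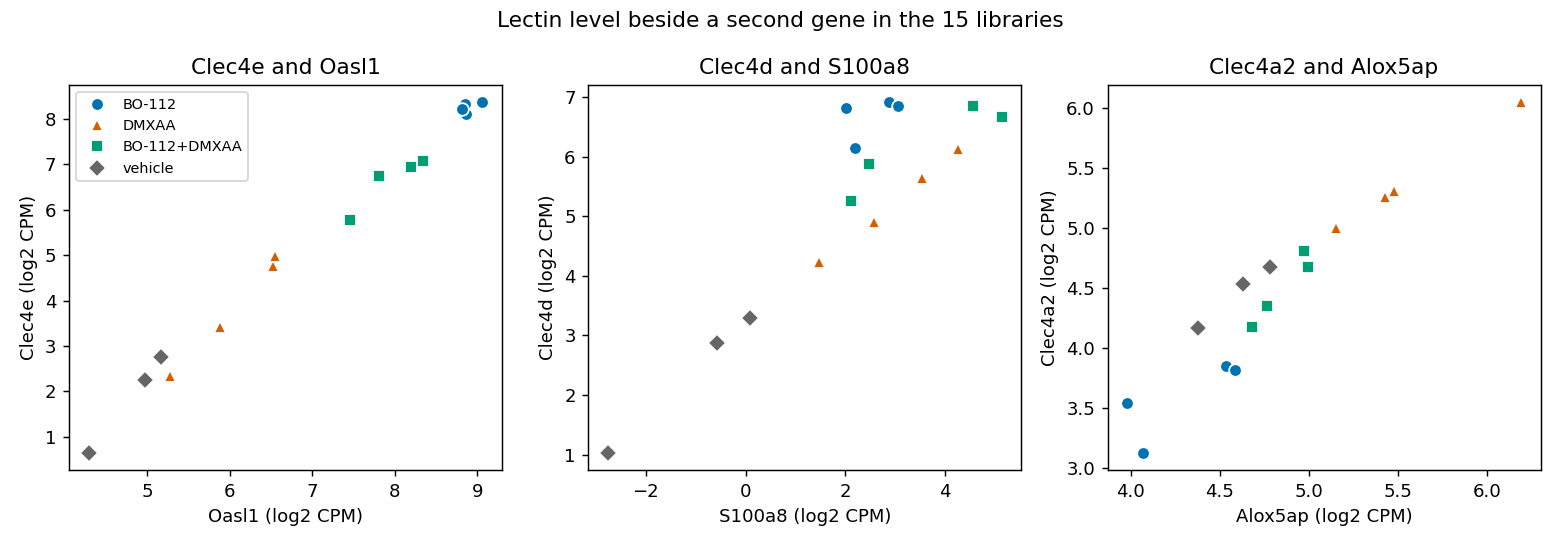
Log2 CPM of Clec4e against Oasl1, Clec4d against S100a8 and Clec4a2 against Alox5ap in the 15 libraries, marked by group. Clec4e and Oasl1 lie along a line (r = 0.995), and DMXAA 2 is the point highest in both Clec4a2 and Alox5ap.

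The adaptor and the signalling genes below the receptors had smaller changes than Clec4e and Clec4d. Of 22 measured genes of the adaptor and Syk-Card9 list, 5 rose and 1 fell with BO-112, 1 rose with DMXAA and 2 rose with both agents, with median log2 fold changes of 0.25, 0.06 and 0.18. Fcer1g, the shared adaptor, averaged 324 ± 13.6 CPM with BO-112, 292 ± 41.5 with DMXAA and 284 ± 40.4 with both agents, against 183 ± 39.5 CPM with vehicle, and rose in each (log2 fold changes of 0.85, 0.69 and 0.64, limma adjusted p = 0.00196, 0.0454 and 0.0360). The DMXAA rise of Fcer1g is no longer called when library size is the total reads alone, under which none of the list was called with DMXAA or with both agents. With BO-112, Malt1, the protease partner of Card9, rose by 1.28 ± 0.21 (limma adjusted p = 0.00102), while Card9 itself fell by 0.85 ± 0.20 (0.0124), to 10.4 ± 1.78 CPM against 18.6 ± 1.54 CPM with vehicle. Syk (0.73 ± 0.26) and Bcl10 (0.30 ± 0.16) were not past the threshold with BO-112, nor was Tyrobp (0.13 ± 0.13), an adaptor of other myeloid receptors. In fits that left out a library 4 to 8 of the list rose in BO-112 tumours, 0 to 4 in DMXAA tumours and 0 to 3 in those given both, with the most in BO-112 tumours without DMXAA 2 and in DMXAA tumours without vehicle 2. Falls with BO-112 numbered 0 to 3, and that of Card9 was lost without vehicle 3. The rise of Fcer1g held in all 15 such fits with BO-112, in 4 with DMXAA and in 6 with both agents.

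Cytokine and inflammatory genes known as targets of this pathway, which many other receptors also drive, rose in large part with BO-112. Of 16 measured, 13 rose with BO-112, 4 with DMXAA and 9 with both agents, and none fell, with medians of 2.30, 0.88 and 2.22. With BO-112, Il12b, a subunit of interleukin 12, was at 40.1 ± 16.4 CPM, against 3.47 ± 1.196 CPM with vehicle (log2 fold change 3.48 ± 0.36, limma adjusted p = 1.58e-05). Cxcl1, a neutrophil attractant, rose by 2.22 ± 0.24 with BO-112, 1.17 ± 0.24 with DMXAA and 2.22 ± 0.24 with both agents (limma adjusted p = 2.34e-05, 0.0279 and 0.000156). The chemokine Ccl4 rose by 3.56 ± 0.41, 2.61 ± 0.41 and 3.22 ± 0.41 (limma adjusted p = 3.90e-05, 0.00659 and 0.000342). Leaving out any library left 1 to 3 of the list risen with DMXAA, and total reads alone left 1.

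Among 15 transcription factors of the pathway, 8 rose and 1 fell with BO-112, none was called with DMXAA and 2 rose with both agents. Leaving out a library gave 5 (without vehicle 1) to 11 (without DMXAA 2) risen with BO-112 and 0 (without BO-112+DMXAA 4) to 4 (without DMXAA 2) with both agents. Relb, an NF-κB subunit, stood at 130.1 ± 9.36 CPM with BO-112, against 65.7 ± 2.83 CPM with vehicle (log2 fold change 0.98 ± 0.13, limma adjusted p = 0.000167). Cebpb, a factor known to drive Clec4e in macrophages, rose with BO-112 by 1.12 ± 0.34 (limma adjusted p = 0.0433) and was 1.196 ± 0.34 with DMXAA, not past the threshold. Its BO-112 call held in 5 of the 15 fits that left out a library. Of 14 negative regulators, 4 rose and 1 fell with BO-112, 1 rose with DMXAA and 2 rose with both agents. Tnfaip3, the NF-κB brake A20, rose by 2.15 ± 0.21 with BO-112 and 1.33 ± 0.21 with both agents (limma adjusted p = 1.15e-05 and 0.00215). The phosphatase genes among the negative regulators did not pass the threshold with BO-112. They were at 0.21 ± 0.17 for Ptpn6, 0.05 ± 0.15 for Ptpn11 and -0.45 ± 0.15 for Inpp5d. Of 7 genes for reported endogenous ligands or their enzymes, 3 rose with BO-112 and 2 with both agents. Lgals9, whose product galectin-9 is a reported ligand of Dectin-1, was at 243 ± 20.6 CPM with BO-112, 137 ± 17.6 CPM with DMXAA and 168 ± 19.4 CPM with both agents, against 93.9 ± 10.4 CPM with vehicle. The list's entry Sap130 is the gene of a Sin3A-associated protein and not that of the spliceosome protein of the same name that Mincle is reported to bind, and it was not called in any comparison with vehicle.

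**Figure D5:**
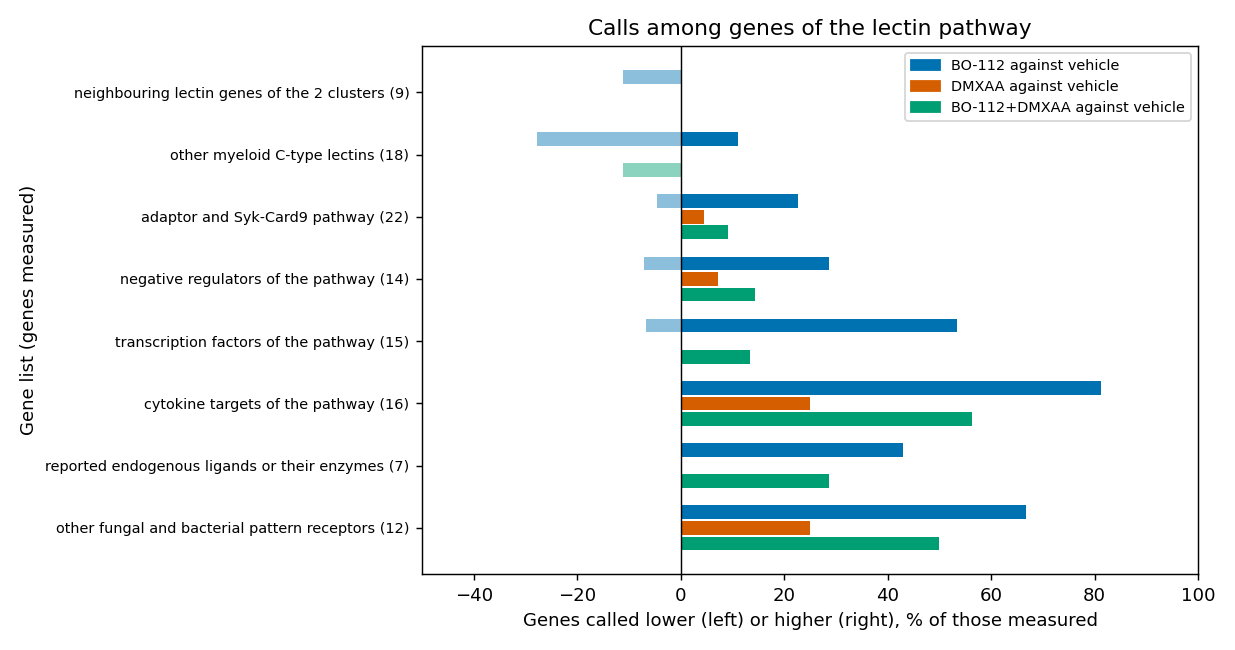
Percent of the measured genes of each lectin or pathway list called higher (right, dark) or lower (left, pale) against vehicle, for BO-112, DMXAA and BO-112+DMXAA, with the number measured beside each list. Of the 8 lists drawn, the cytokine targets have the largest share called, 13 of 16 with BO-112, and the neighbouring lectins the smallest, with 1 lower.

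Beside the counts of other lectin genes stand the shares of all genes, 7.64% called higher and 4.31% called lower with BO-112. These lists too were chosen with earlier results of these data known, so nothing is read from the difference. Of 9 measured neighbours in the 2 clusters, none rose and 1 fell with BO-112, Clec1a, by 0.86 ± 0.20 (limma adjusted p = 0.0108), and none was called with DMXAA or both agents. Clec12a, an inhibitory receptor, averaged 61.4 ± 14.01 CPM with BO-112, 89.3 ± 43.1 with DMXAA and 50.4 ± 6.94 with both agents, against 41.6 ± 18.0 CPM with vehicle. Clec4a4 and Clec4b1, next to Clec4a2 and Clec4a3, averaged at most 1.10 CPM in any group. Of 18 other myeloid C-type lectins, 2 rose and 5 fell with BO-112, and 2 fell with both agents. Leaving out a library gave 2 to 5 of these higher (the most without vehicle 2) and 4 to 7 lower with BO-112, and 0 to 1 higher and 1 to 3 lower with both agents (the most lower without BO-112 4 or DMXAA 2). For the neighbouring lectins it gave 0 to 3 lower with BO-112 (0 without vehicle 1, 3 without BO-112+DMXAA 1) and at most 1 higher in any comparison with vehicle. Mrc1, the macrophage mannose receptor, fell to 34.5 ± 6.28 CPM with BO-112, against 253 ± 163 CPM with vehicle (log2 fold change -2.71 ± 0.47, limma adjusted p = 0.00132). Clec5a, another Syk-coupled lectin, was at 0.58 ± 0.19 with BO-112, not past the threshold. Among other receptors of fungi and bacteria, 8 of 12 rose with BO-112, 3 with DMXAA and 6 with both agents. With BO-112 the smallest adjusted p-values of that list were those of Tlr2 (1.97 ± 0.17, limma adjusted p = 3.64e-06) and Fpr2 (5.40 ± 0.51, limma adjusted p = 6.84e-06), and the largest log2 fold change was that of Fpr1 (5.81 ± 0.66).

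Markers of the cells that carry these receptors moved as well, and in bulk tumour RNA more cells of a type and more RNA per cell cannot be told apart. Of 13 neutrophil markers, 5 rose with BO-112, 3 rose and 1 fell with DMXAA, and 6 rose with both agents, and their summed level was 219 to 295 CPM, 121 to 275 CPM and 173 to 408 CPM, against 147 to 194 CPM with vehicle. Leaving out a library gave 2 to 6 risen in BO-112 tumours, 0 to 4 in DMXAA tumours and 3 to 6 in those given both. Among them S100a8 averaged 6.04 ± 2.07 CPM with BO-112, 9.81 ± 7.14 with DMXAA and 17.1 ± 14.8 with both agents, against 0.628 ± 0.458 CPM with vehicle. Of 12 monocyte markers, 3 rose and 2 fell with BO-112, 2 rose with DMXAA and 3 rose with both agents, and summed levels were 825 to 924, 754 to 1349 and 690 to 901 CPM, against 696 to 914 CPM with vehicle. Ly6c2, an inflammatory monocyte marker, rose by 3.54 ± 0.32 with BO-112 (limma adjusted p = 4.47e-06), while Ccr2 fell by 1.49 ± 0.33 (limma adjusted p = 0.00778). Of 14 macrophage markers, 1 rose and 3 fell with BO-112, 1 rose with DMXAA, and 1 rose and 1 fell with both agents, with sums of 4256 to 5887, 4243 to 8882 and 4118 to 5424 CPM, against 4299 to 5214 CPM with vehicle. Of 12 dendritic cell markers, 1 rose and 2 fell with BO-112 and 1 rose with both agents, with sums of 539 to 644, 464 to 562 and 505 to 582 CPM, against 535 to 563 CPM with vehicle. Of 10 pan-leukocyte and myeloid markers, 4 rose and 1 fell with BO-112, 2 rose with DMXAA and 2 rose with both agents, with sums of 2115 to 2414, 2154 to 2769 and 1924 to 2339 CPM, against 1582 to 2132 CPM with vehicle. Of the 5 epithelial markers, 1 rose and 2 fell with BO-112 and none was called with DMXAA or both agents. Leaving out a library gave 2 (without vehicle 3) to 5 pan-leukocyte and myeloid markers risen with BO-112, 0 to 4 with DMXAA (4 without vehicle 2 or DMXAA 4) and 0 to 2 with both agents. Dendritic cell markers that fell with BO-112 then numbered 0 (without vehicle 3) to 4 (without DMXAA 2), and epithelial markers that rose with BO-112 0 to 2. The part of such markers in the members' levels was not tested.

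Set against Ptprc, the leukocyte antigen CD45, Clec4d and Clec4a1 were higher in each treated tumour than in any vehicle tumour. Clec4e was so in each BO-112 and BO-112+DMXAA tumour. For Clec4a1 the gap was narrow, with a highest vehicle log2 ratio of -2.01 and a lowest treated one of -1.93. Clec4a2 lay wholly below the vehicle range with BO-112, and Clec7a with BO-112 and with both agents. The share of all genes with such ranges was not computed, so nothing is read from these separations. For Clec4e with DMXAA the log2 ratio was -5.54 to -2.996, overlapping the vehicle range of -6.53 to -5.19. The mean log2 ratio of Clec4e to Ptprc was higher than in vehicle tumours by 5.55 with BO-112, 1.64 with DMXAA and 4.17 with both agents, and that of Clec4d by 3.46, 2.48 and 3.18. For Clec4a1, whose level was about as high with BO-112 as with both agents, the ratio was higher by 0.36, 0.45 and 0.61, less than the level itself. For Clec4a2 it differed by -1.69 with BO-112, 0.60 with DMXAA and -0.53 with both agents, and for Clec7a by -1.71, -1.23 and -1.52. With DMXAA the size depended on the gene divided by. Over Fcer1g and over Itgam, a myeloid integrin, Clec4a1 was higher with DMXAA by 0.11 and 0.15, and Clec4a2 by 0.26 and 0.30. With BO-112, Clec4a1 was higher by 0.34 over Fcer1g and by 0.74 over Itgam. Ptprc itself was at 348 ± 20.3 CPM with BO-112, 255 ± 61.6 with DMXAA and 295 ± 41.5 with both agents, against 202 ± 52.2 CPM with vehicle, and rose with BO-112 (0.82 ± 0.19, limma adjusted p = 0.0110). Of the 11 skeletal muscle markers none was called in a comparison with vehicle, and their sum ranged from 14.3 to 958 CPM over the 15 libraries. Clec4e and Clec4d were as far above vehicle without the 4 muscle-rich libraries, at 6.86 ± 0.68 and 4.65 ± 0.66 with BO-112, as with them.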

How the data were processed

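Stranded mRNA libraries of 15 tumours were sequenced as 150 bp pairs. The submitters' processing notes name STAR, mm39, edgeR and limma for the authors' own steps, without their order. Their deposited log2 CPM table holds 17712 genes, with 0.5 reads added before the log, and CPM here is 2 to that power. Whole reads were recovered for 100% of values (tolerance 1e-06). The deposited raw counts carry no sample names, so 15 columns were not used. Symbols and merged exon lengths came from GENCODE M21 by identifier (76 genes had no symbol), and promoters from RefSeq.

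A limma model (limma 3.58.1, R 4.3.3, intensity trend, robust) with 4 group means was fitted to all 15 libraries and all genes. P-values were adjusted by Benjamini-Hochberg over all genes, with a threshold of 0.05, two-sided. Tables and figures used Python 3.11.15, pandas 2.3.3, numpy 2.4.6 and matplotlib 3.10.9. The fit was tested on simulated data. Alternatives were other scalings, a replicate block, limma-voom run on recovered reads, keeping genes of 1 CPM in 4 or more libraries, 2 groups alone, and leaving out libraries. Likeness without DMXAA 2 was added after seeing the data. Group labels and the comparisons follow the sample titles.

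The members and the 15 other lists were chosen with earlier results of these data known. Named genes are the members, a fixed panel, the 3 of each list with the smallest adjusted p in each direction, and the 3 most like each member among genes of at least 1 CPM. A few named beyond it were chosen after their values were seen.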

Additional observations from a re-analysis of the deposited data

Results flagged for a closer look

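In BO-112 2, Clec4d (70.8 CPM) and Clec4n (12.8 CPM) lay far from the other BO-112 tumours, at 113 to 120.3 CPM and 30.8 to 34.7 CPM. They were found among 21 groups of 4 libraries examined for such a gap, of which chance picks about 1 in 20. For Clec4e the same tumour was the highest of its group, at 329 CPM.

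The change of Clec4e and Clec4d on adding DMXAA differed between tumours given BO-112 and tumours given vehicle, by -3.61 ± 0.77 and -3.35 ± 0.72 on the log2 scale in the interaction term of limma. Of all genes 1.15% were called lower there, and the members' values are a description. The 2 calls held in 6 and 4 of the 15 fits that left out a library. Both were lost under total reads alone and without the muscle-rich libraries. DMXAA with BO-112 against BO-112 alone gave -1.62 for Clec4e and -0.52 for Clec4d, while DMXAA against vehicle gave 1.99 and 2.83.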

How the results depend on the processing

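Clec4e, Clec4d and Clec4a1 kept their calls in BO-112 and in BO-112+DMXAA against vehicle under every alternative run, as did Clec4e and Clec4a2 in BO-112 against DMXAA, and no member value against vehicle or in the interaction that was called turned its sign. The counts moved more, and the cause was not tested. BO-112 against vehicle called 2116 genes, 4320 with the 2 groups alone, 1090 without the 4 muscle-rich libraries and 1269 to 3524 leaving out a library. DMXAA against vehicle called 221 genes, 105 by total reads alone, 93 by limma-voom, 4 with the 2 groups alone, 24 without the muscle-rich libraries and 25 to 376 leaving out a library, the members called being 2 and then 1, 0, 0, 1 and 0 to 3. BO-112+DMXAA against vehicle called 473, 748 with the 2 groups alone and 246 to 768. BO-112+DMXAA against BO-112 called 0, 3 by total reads alone, 362 with the 2 groups alone (2 members, otherwise 0) and 0 to 32. BO-112+DMXAA against DMXAA called 157 genes and 1 member, 4 and 0 with the 2 groups alone, 1 and 0 without the muscle-rich libraries, and 0 to 1765 and 0 to 3 leaving out a library. BO-112 against DMXAA called 3783 genes and 4 members, 1262 with the 2 groups alone, 791 without the muscle-rich libraries, and 1879 to 5898 and 2 to 4. The interaction called 239 genes and 2 members, 114 and 0 by total reads alone, 36 and 0 without the muscle-rich libraries, and 65 to 456 and 0 to 3.

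The fewest genes came without vehicle 3 (BO-112 and BO-112+DMXAA against vehicle), without vehicle 1 (DMXAA against vehicle, interaction), without BO-112+DMXAA 1 and equally without BO-112+DMXAA 2 (BO-112+DMXAA against DMXAA) and without DMXAA 3 (BO-112 against DMXAA). The most came without DMXAA 2 (BO-112 and BO-112+DMXAA against vehicle, BO-112+DMXAA against BO-112, interaction), without DMXAA 4 (DMXAA against vehicle) and without DMXAA 1 (both comparisons with DMXAA).

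The labels do not say whether replicate numbers pair the tumours. Deviations of same-numbered libraries correlated at a mean of 0.0265 over 21 pairs (-0.331 to 0.312), which cannot exclude a pairing. The replicate block, run as a formal alternative only, gave 1762, 283, 471, 0, 168, 3828 and 283 genes in the order above. Under it Clec4a2 in BO-112 against vehicle was not called. Genes near 1 CPM, such as Clec4b1 and Clec4a4, rest on few reads.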
